A study of Drosophila melanogaster with 18 samples.

Results

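This report describes the GATC sites of the Drosophila melanogaster genome that carried strong signal in every group of a targeted DamID experiment in embryos. A site was taken where its mean over the 3 libraries of a group was at least 30 CPM (counts per 1000000 counts of the library) in every one of the 6 groups, and 2283 of 400733 sites met this rule. They are called the strong sites below. The rule used the counts themselves, so the levels of these sites and the differences between groups at them are given as descriptions, and tests on the same libraries support nothing about them.

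In targeted DamID the bacterial methylase Dam is fused to a protein of interest and expressed in chosen cells with GAL4. Dam adds a methyl group to the adenine of GATC sequences that the fusion protein comes near, and methylated sites are then cut with DpnI, amplified and sequenced, so that reads start at the ends of GATC fragments. With a subunit of RNA polymerase II as the partner, signal marks chromatin contacted by the polymerase, which in fly embryos often accumulates close to transcription starts. Alk is a receptor tyrosine kinase of the visceral mesoderm (the precursor of gut muscle), and its ligand Jelly belly (Jeb) activates the Ras/ERK pathway through it to specify muscle founder cells.

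The 18 libraries came from whole embryos collected over 4 h and aged to stages 10 to 13, each sample a pool of many embryos, and formed 6 groups of 3 replicates. By the study's account, all groups expressed UAS-Dam-PolII, and those without a further transgene had a wild-type background. With twi2xPE-GAL4, active in the mesoderm in general, the groups were twi Alk.DN (UAS-Alk.DN, the extracellular domain of Alk acting as a dominant negative), twi Jeb (UAS-Jeb, overexpressed ligand) and twi Dam-PolII (no further transgene). With bap-GAL4, active in the visceral mesoderm, they were bap Alk.DN, bap Jeb and bap Dam-PolII. The study compared these genotypes to find genes whose polymerase occupancy depends on Alk. Values below are listed for replicates 1 to 3 of a group in that order. Libraries of Dam without a polymerase were not analysed here, so contact by the polymerase and access of Dam to open chromatin cannot be told apart at any site, and neither can fewer labelled cells and less methylation per cell.

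A few strong sites show what such a site looks like. Sequences were read from the + strand of the Release 6 reference genome, 5′ to 3′, with GATC in capitals. The first pair are whole GATC fragments with a strong site at each end, one in the Btk gene and the other in the aop gene. They are shown because they differ in the bases that follow GATC at their ends, which matters for the libraries labelled Jeb replicate 1. The others are windows centred on the site, for the most even sites in sty, Zasp66 and Fic and for uneven sites in Mrp4 and lncRNA:CR45920.
Btk fragment, chr2L:8277709-8277974: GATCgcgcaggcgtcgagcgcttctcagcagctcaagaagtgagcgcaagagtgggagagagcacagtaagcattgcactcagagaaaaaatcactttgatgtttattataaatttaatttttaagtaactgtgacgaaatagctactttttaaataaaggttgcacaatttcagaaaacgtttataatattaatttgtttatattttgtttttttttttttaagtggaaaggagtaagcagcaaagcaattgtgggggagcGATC
aop fragment, chr2L:2162992-2163218: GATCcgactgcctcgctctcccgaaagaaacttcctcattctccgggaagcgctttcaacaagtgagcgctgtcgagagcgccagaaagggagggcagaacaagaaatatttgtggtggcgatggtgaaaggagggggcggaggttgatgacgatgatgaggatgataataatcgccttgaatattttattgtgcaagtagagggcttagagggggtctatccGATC
sty site, chr3L:3411718-3411777: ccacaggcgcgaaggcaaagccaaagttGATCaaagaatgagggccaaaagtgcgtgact
Zasp66 site, chr3L:8628547-8628606: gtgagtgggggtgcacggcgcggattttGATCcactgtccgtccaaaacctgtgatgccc
Fic site, chr2L:6424543-6424602: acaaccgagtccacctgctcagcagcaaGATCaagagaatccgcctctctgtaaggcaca
Mrp4 site, chr3R:11569776-11569835: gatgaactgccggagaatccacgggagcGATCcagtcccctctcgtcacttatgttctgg
lncRNA:CR45920 site, chr3L:21669812-21669871: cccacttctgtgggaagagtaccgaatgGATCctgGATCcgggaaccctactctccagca
The last window holds a second GATC, which was not strong in every group, and the fragment between them is 11 bp long.

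Library totals ranged over 1624349 to 14095376 counts, so that 3 counts, taken as the floor of detection, correspond to 0.213 to 1.85 CPM. Intervals and floors cover counting error only, since reads amplified by PCR are not independent molecules. Some libraries did not look like their labels. The libraries labelled bap Dam-PolII had 382, 367 and 469.8 CPM over the first exon of jeb, a level otherwise seen only where UAS-Jeb was expressed (258 and 249 in bap Jeb replicates 2 and 3, 351 and 621 in twi Jeb replicates 2 and 3), against 2.40 to 13.2 CPM in the remaining 11 libraries. Those 11 include both libraries labelled Jeb replicate 1, with 4.93 (twi) and 5.57 CPM (bap). All 6 Alk.DN libraries had 31.8 to 52.6 CPM over the exons of Polr2A, the polymerase subunit gene, against 157 to 2088 CPM in the other 12. Among these, the libraries labelled bap Dam-PolII had 2043 to 2088 CPM and those of twi Dam-PolII 260.1 to 269 CPM. The libraries labelled Jeb replicate 1 also stood apart in fragment ends. A fragment is called purine-ended here where the base after GATC, read inward from both of its ends, is A or G, as in the Btk fragment and not in the aop fragment. Sites without such a fragment took 12.9% (twi; 95% Wilson interval 12.9 to 13.0) and 14.7% (bap; 14.7 to 14.7) of all counts in this pair of libraries, against 54.3% to 60.5% in the remaining 16. Correlations, ratios between groups and counts of calls that moved with these libraries are therefore also given without both of them.

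The strong sites, 2283 of 400733 positions, held 24.0% to 41.9% of all counts of a library. Their share averaged 24.3% ± 0.338 in twi Alk.DN, 39.4% ± 2.28 in twi Jeb and 35.4% ± 0.313 in twi Dam-PolII, and 27.7% ± 0.173 in bap Alk.DN, 35.6% ± 2.17 in bap Jeb and 34.7% ± 0.938 in bap Dam-PolII (SD, n = 3 each). The 6 Alk.DN libraries, at 24.0% to 27.8%, lay below every other library, the lowest of which was bap Jeb replicate 3 with 33.2%. The lower Polr2A exon signal ran along the same 6 libraries, and its part in the lower share was not tested. Between 2130 and 2264 strong sites reached 30 CPM in each of the 16 libraries outside Jeb replicate 1, against 1262 (twi) and 1261 (bap) in the libraries labelled Jeb replicate 1. No strong site was without counts in any library. The fewest counts at any of them were 4 in bap Jeb replicate 1, 5 in twi Jeb replicate 1, 8 in bap Jeb replicate 3, the shallowest library, and 41 to 343 in the others.

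**Figure D1:**
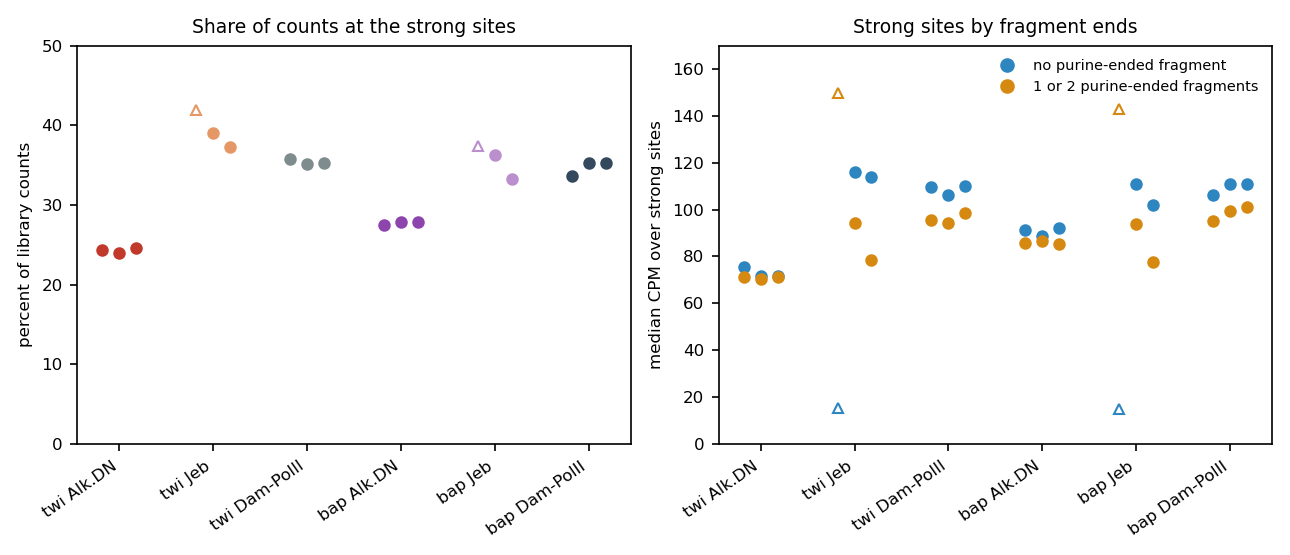
Left: percent of each library's counts at the 2283 strong sites, 1 point per library. Right: median CPM over strong sites that adjoin no purine-ended fragment (blue, 1155 sites) and 1 or 2 (orange, 1128 sites), 1 point per library and class. Open triangles are the libraries labelled Jeb replicate 1, whose classes lie at about 15 and 143 to 149.6 CPM, while in the other 16 libraries both classes lie between 70.2 and 116 CPM.

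Of the strong sites, 1155 (50.6%) adjoined no purine-ended fragment, 874 adjoined 1 and 254 adjoined 2, against 57.1% of all sites with none. In the libraries labelled Jeb replicate 1 the median level of the first class was 15.2 CPM (twi) and 14.8 CPM (bap), and that of the sites with 1 or 2 such fragments was 149.6 and 143 CPM. In the other 16 libraries the medians of the classes were 71.7 to 116 CPM and 70.2 to 101 CPM. Only 28.9% (twi) and 28.7% (bap) of the strong sites without a purine-ended fragment reached 30 CPM in the libraries labelled Jeb replicate 1, against 82.3% and 82.4% of those with one. The rule averages 3 libraries, so that a site at 4 CPM in Jeb replicate 1 still met it where replicates 2 and 3 were high.

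Across strong sites, libraries of one group resembled each other more than libraries of different groups. The correlation of log2(CPM + 1) over the 2283 sites, a description across sites of libraries that differ in depth, was 0.858 to 0.988 in the 14 pairs of same-group libraries outside Jeb replicate 1, with a median of 0.950. It was 0.40 to 0.871 in the 106 pairs from different groups, with a median of 0.622. The libraries labelled Jeb replicate 1 correlated at 0.952 with each other and at 0.0399 to 0.284 with the other 16. Between group means on the log2 scale, the closest groups were twi Alk.DN and bap Alk.DN (0.813) and twi Jeb and bap Jeb (0.811), and the least alike were twi Alk.DN and bap Jeb (0.444) and twi Alk.DN and bap Dam-PolII (0.448). The value was 0.726 for twi Dam-PolII and bap Dam-PolII, and among groups of one driver it was highest for bap Jeb and bap Dam-PolII (0.773) and for twi Jeb and twi Dam-PolII (0.772). Without the libraries labelled Jeb replicate 1 the closest groups were bap Jeb and bap Dam-PolII (0.869) and twi Jeb and twi Dam-PolII (0.855), ahead of both Alk.DN groups (0.813) and both Jeb groups (0.796). The order of the closest groups therefore rests on those libraries.

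The rule could be checked in replicates that it did not use. Where sites were chosen by the mean of replicates 1 and 3 alone, 1999 sites passed, and 1827 of them (91.4%) also reached 30 CPM in all 6 libraries of replicate 2, which 0.588% of all sites did. Where replicates 1 and 2 chose, 1781 of 2110 sites (84.4%) did so in replicate 3, against 0.529% of all sites. Where replicates 2 and 3 chose, 1002 of 2358 sites (42.5%) did so in replicate 1, against 0.285% of all sites. In the 4 replicate 1 libraries outside Jeb, 91.5% of those 2358 sites reached 30 CPM, against 0.661% of all sites, and all 2358 had at least 1 count in all 6 replicate 1 libraries.

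Many more sites were strong in some groups only. In total 389563 sites stayed under 30 CPM in every group, 8887 reached it in 1 to 5 groups, and 834 of these did so in 5. Within a group, 4916 sites reached 30 CPM in twi Alk.DN, 5673 in twi Jeb and 5908 in twi Dam-PolII, and 5439 in bap Alk.DN, 5877 in bap Jeb and 6561 in bap Dam-PolII. The shared strong sites made up 34.8% (bap Dam-PolII) to 46.4% (twi Alk.DN) of these. The lowest group mean of a strong site had a median of 52.7 CPM and quartiles of 37.8 and 80.5 CPM. It was at least 50 CPM at 1216 sites, at least 100 CPM at 397, at least 200 CPM at 102 and at least 500 CPM at 9.

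At the threshold, the 3 sites just inside lay in tup (an Islet-type LIM-homeodomain factor), Sec61alpha (a subunit of the protein translocon) and Alh (a PHD-finger protein), with lowest group means of 30, 30 and 30.1 CPM. The 3 just outside lay in lncRNA:CR44632, stas and lncRNA:CR43334 and had lowest group means that also round to 30 CPM. The tup site shows how an average can pass. It had 134, 109 and 129 CPM in bap Alk.DN libraries, 2.09, 28.9 and 59.1 CPM in bap Jeb and 30.5, 33.2 and 29.9 CPM in bap Dam-PolII. Its bap Dam-PolII libraries lay close to the threshold, and its bap Jeb mean met it through replicate 3.

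Several of the highest strong sites lay next to transcription starts, and others in introns of signaling genes. By lowest group mean the first was a site in the 5′ UTR of CG3770, 22 bp upstream of the CG15861 start (2R:24945221-24945224), with 749 CPM in its lowest group and 2383 CPM in its highest. It had 762, 754 and 732 CPM in twi Alk.DN, 103, 1648 and 2365 CPM in twi Jeb and 1706, 1514 and 1608 CPM in twi Dam-PolII. In the bap groups it had 1041, 1066 and 1123 CPM in bap Alk.DN libraries, 158, 2454 and 2593 CPM in bap Jeb and 2064, 2561 and 2524 CPM in bap Dam-PolII. The order was the same with both drivers, Alk.DN below Dam-PolII without overlap and the library labelled Jeb replicate 1 below both. The other end of the same 492 bp fragment, in the 5′ UTR of CG15861, ranked eighth with a lowest group mean of 552 CPM. The sites in the 5′ UTRs of CG3909 (3R:10043301-10043304, 33 bp downstream of its start) and of Mical (3R:10042814-10042817, 5 bp downstream of its start) are likewise the ends of a 491 bp fragment. Mical is a flavoprotein that takes actin filaments apart downstream of semaphorin signaling. The CG3909 site had 858, 709 and 703 CPM in twi Alk.DN, 282, 969.5 and 1488 CPM in twi Jeb and 1281, 1169 and 1092 CPM in twi Dam-PolII. In the bap groups it had 802, 844 and 685 CPM in bap Alk.DN libraries, 224, 963 and 1016 CPM in bap Jeb and 1179.7, 1193 and 1122 CPM in bap Dam-PolII. Its Alk.DN libraries lay below all Dam-PolII libraries with either driver, and the libraries labelled Jeb replicate 1 were the lowest of all. Among the 12 highest were also a pair of sites in Taldo (transaldolase, an enzyme of the pentose phosphate pathway) and CG3735, a pair in an intron of shn (a zinc-finger cofactor of Dpp signaling), a site in lncRNA:CR43644, and a site in tRNA:His-GTG-1-4, whose end sequence has 5 copies among GATC sites and so may collect reads of other tRNA copies.

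The Btk fragment printed above had the largest levels of all strong sites. Btk encodes a nonreceptor tyrosine kinase of the Tec family, and the fragment lies in an intron of its longer transcripts, 9 to 271 bp upstream of an internal start. Its end at 8277709 had 506, 641 and 748 CPM in twi Alk.DN, 15247, 6727 and 1928 CPM in twi Jeb and 1283, 2035 and 1906 CPM in twi Dam-PolII. In the bap groups it had 1117, 1128 and 1051 CPM in bap Alk.DN libraries, 5238, 2992 and 6222 CPM in bap Jeb and 2385, 2504 and 3135 CPM in bap Dam-PolII. All Alk.DN libraries lay below all others with either driver, and the SD was 6746 CPM among twi Jeb libraries and 1656 CPM among bap Jeb libraries, against 41.6 to 403 CPM in the other groups. The other end of the fragment, at 8277971, had nearly the same values, with group means of 626 to 8052 CPM. The ratio of the highest to the lowest group mean was 12.6 at the first end, and 7.30 without the libraries labelled Jeb replicate 1.

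The aop fragment, in an intron of the gene for the ETS repressor Yan, is not purine-ended, and its counts were lowest in the libraries labelled Jeb replicate 1. Its end at 2162992 had 463, 399.6 and 443 CPM in twi Alk.DN, 22.3, 689.9 and 440.1 CPM in twi Jeb and 828, 933 and 973 CPM in twi Dam-PolII. In the bap groups it had 584, 511 and 634 CPM in bap Alk.DN libraries, 26.8, 556 and 354 CPM in bap Jeb and 601, 553 and 556 CPM in bap Dam-PolII. Outside the libraries labelled Jeb replicate 1, the levels at this site ranged from 354 to 973 CPM.

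**Figure D2:**
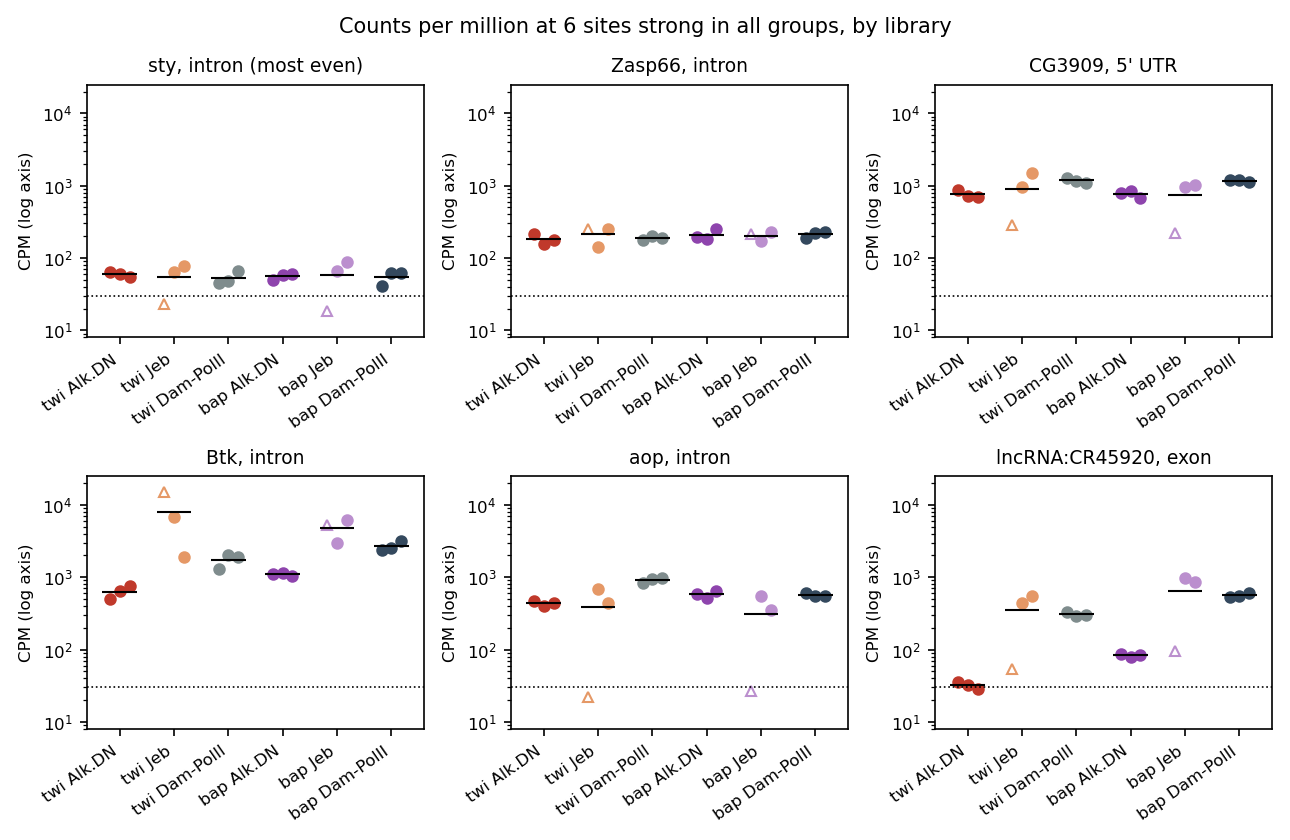
CPM in each library (log axis) at 6 strong sites, by group. Points are libraries, open triangles the libraries labelled Jeb replicate 1, bars the group means and the dotted line 30 CPM. The sty and Zasp66 sites have nearly equal group means (ratios 1.12 and 1.19), the Btk and lncRNA:CR45920 sites differ by 12.6 and 19.9 times between groups (7.30 and 28.3 times, with 1.46 at sty and 1.18 at Zasp66, without the triangles), and the triangles lie far below the other libraries at aop.

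How even the strong sites were was measured by the ratio of the highest to the lowest of the 6 group means. Its median was 2.78, with quartiles of 2.13 and 3.92 and a range of 1.12 to 49.9. Group means lay within 1.5-fold at 73 sites (3.20%) and within 2-fold at 456 (20%), while 323 sites (14.1%) differed by 5-fold or more and 52 (2.28%) by 10-fold or more. Strong in every group therefore did not mean equal in every group. Over the 3 twi groups alone the median ratio was 1.98, over the 3 bap groups 1.93, and over the 4 groups without Jeb 2.23. The spread between replicates bears on these values. Within groups, the median SD of log2 CPM was 0.772 over all libraries, more than the median SD between group means of 0.568. Without the libraries labelled Jeb replicate 1 the within-group SD was 0.243 and the between-group SD 0.524, with a median ratio of 2.57. Ratios then ranged from 1.14 to 49.9, with 112 sites (4.91%) within 1.5-fold, 588 (25.8%) within 2-fold, 260 (11.4%) at 5-fold or more and 34 (1.49%) at 10-fold or more, and 272 ratios (11.9%) moved by over 1.5 times. In the 4 groups without Jeb the values were 0.194 and 0.519.

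**Figure D3:**
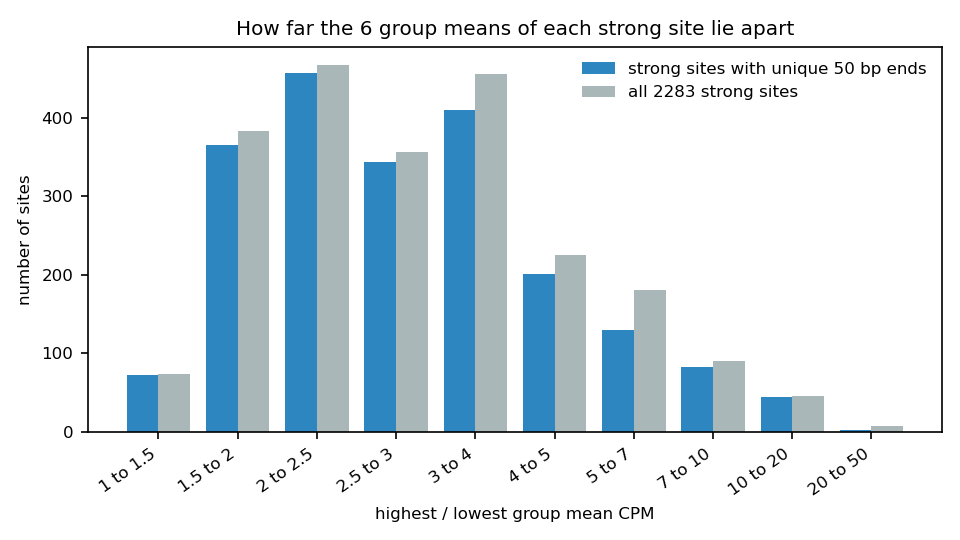
Number of strong sites (vertical axis) by the ratio of the highest to the lowest group mean CPM (bins of unequal width), for the 2108 strong sites with unique 50 bp ends (left bars) and for all 2283 (right bars). Most sites lie between 1.5 and 4, and of the 7 sites above 20 only 2 have unique ends.

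The groups were not alike in where they stood. The twi Alk.DN mean was the lowest of the 6 at 822 strong sites (36.0%), against 298 for twi Jeb and 162 for twi Dam-PolII. The bap Alk.DN mean was the lowest at 342, bap Jeb at 415 and bap Dam-PolII at 244. The highest mean fell in twi Alk.DN at 175 sites, twi Jeb at 447, twi Dam-PolII at 500, bap Alk.DN at 293, bap Jeb at 283 and bap Dam-PolII at 585. Without the libraries labelled Jeb replicate 1, twi Alk.DN was lowest at 913 sites (40%), and the highest mean fell in twi Jeb at 516 sites, in bap Jeb at 322 and in bap Dam-PolII at 506. The median over strong sites was 72.2 CPM in twi Alk.DN, 99.1 CPM in twi Jeb and 103 CPM in twi Dam-PolII libraries, and 89.2 CPM in bap Alk.DN libraries, 94.0 CPM in bap Jeb and 105 CPM in bap Dam-PolII.

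The most even site lay in an intron of sty (Sprouty, a feedback inhibitor of receptor tyrosine kinase signaling), 439 bp downstream of an annotated start of another transcript. It had 63.5, 59.4 and 55.1 CPM in twi Alk.DN, 23.3, 63.4 and 78.6 CPM in twi Jeb and 45.2, 47.9 and 65.2 CPM in twi Dam-PolII. In the bap groups it had 49.7, 58.2 and 60.8 CPM in bap Alk.DN libraries, 18.8, 67.0 and 86.8 CPM in bap Jeb and 41.1, 61.4 and 61.2 CPM in bap Dam-PolII. The groups overlapped throughout, group means were 52.8 to 59.3 CPM, and the lowest values were again those of the libraries labelled Jeb replicate 1. Evenness of the means thus hid a spread of 18.8 to 86.8 CPM among the bap Jeb libraries, and the ratio of 1.12 was 1.46 without the libraries labelled Jeb replicate 1.

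The second, in an intron of Zasp66 (a PDZ-domain protein of muscle Z-discs), was even across libraries as well. It had 212, 158 and 175 CPM in twi Alk.DN, 253, 144 and 250.3 CPM in twi Jeb and 177, 202 and 187 CPM in twi Dam-PolII. With the bap driver it had 196, 186 and 251 CPM in bap Alk.DN libraries, 215, 173 and 226 CPM in bap Jeb and 189.9, 222 and 230.2 CPM in bap Dam-PolII. All 18 libraries lay between 144 and 253 CPM, including those labelled Jeb replicate 1, although the site adjoins no purine-ended fragment. The site in lncRNA:CR31840 (2L:14023729-14023732) was similar at a lower level, with 24.0 to 44.7 CPM over the 18 libraries and group means of 30.4 to 36.6 CPM. At the Fic site (coding exon of an enzyme that adds AMP to the chaperone BiP) group means were 51.0 to 61.3 CPM, yet the libraries labelled Jeb replicate 1 had 2.26 (twi) and 3.07 CPM (bap). The remaining sites of the 8 most even lay in CG14671, in Nuak (a kinase of the AMPK family), in smal (a discoidin-domain receptor) and 7521 bp from the nearest start in intergenic sequence, with ratios of 1.19 to 1.22. Without the libraries labelled Jeb replicate 1 the lncRNA:CR31840 and Zasp66 sites kept ratios of 1.14 and 1.18, and the other 6 of these 8 sites had ratios of 1.43 to 1.82.

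The least even strong sites were copies of 28S ribosomal RNA. The 4 largest ratios (44.7 to 49.9) belonged to sites of the rDNA sequence and the fifth (37.5) to an unplaced scaffold with the same repeated ends, each of which has 6 or 15 copies among GATC sites. The first, in 28SrRNA:CR45844, had 2743, 2286 and 2538 CPM in twi Alk.DN, 59.7, 233 and 575 CPM in twi Jeb and 279, 278 and 251 CPM in twi Dam-PolII. With the bap driver it had 1010.1, 933 and 982 CPM in bap Alk.DN libraries, 41.5, 101 and 244 CPM in bap Jeb and 87.3, 35.2 and 29.1 CPM in bap Dam-PolII. All Alk.DN libraries lay above all others with either driver, the reverse of most strong sites. In the per-site fit the log2 fold change of Alk.DN over Dam-PolII was 2.71 ± 0.11 (SE) with twi and 3.89 ± 0.33 with bap, and 2.61 to 2.72 (twi) and 3.81 to 3.89 (bap) over the 4 rDNA sites. Since the copies share reads, these values belong to the repeat and not to one copy.

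Among sites with unique ends, the largest ratios were 24.4 in a coding exon shared by CG31743 and CG34313 (2L:16879567-16879570), 24.2 in Mrp4 (an ABC transporter of the multidrug resistance family) and 19.9 in lncRNA:CR45920. These were 32.5, 21.4 and 28.3 without the libraries labelled Jeb replicate 1. The lncRNA:CR45920 site had 35.4, 32.6 and 28.8 CPM in twi Alk.DN, 54.2, 435 and 557 CPM in twi Jeb and 331, 292 and 303 CPM in twi Dam-PolII. With the bap driver it had 86.5, 78.8 and 85.3 CPM in bap Alk.DN libraries, 95.9, 972 and 854 CPM in bap Jeb and 531, 556 and 609 CPM in bap Dam-PolII. The Alk.DN libraries lay below all others with their driver, and the log2 fold change of Alk.DN over Dam-PolII was -3.78 ± 0.13 with twi and -3.15 ± 0.14 with bap. At the Mrp4 site, Alk.DN libraries again lay lowest, with 57.1, 38.2 and 49.0 CPM in twi Alk.DN, against 116, 137 and 138 CPM in twi Dam-PolII libraries, and 134, 140.3 and 94.6 CPM in bap Alk.DN libraries, against 347, 265 and 367 CPM in bap Dam-PolII. The fold changes there were -1.96 ± 0.17 (twi) and -1.80 ± 0.19 (bap) on the log2 scale. The ratio of 24.2 came from bap Jeb, whose libraries had 1434, 553 and 1501 CPM. At the CG31743 and CG34313 site it rested on bap Jeb replicate 3 with 1985 CPM, against 293 and 328 CPM in the other bap Jeb libraries. There the fold changes of Alk.DN over Dam-PolII were -1.06 ± 0.19 (twi) and -0.85 ± 0.19 (bap), and -0.54 and -0.46 where libraries were scaled by total counts alone.

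Further unique sites with ratios of 14.7 to 19.4, named after their values were seen, lay in Hsc70-4 (the constitutive cytosolic Hsp70 chaperone), Past1 (an EHD protein of endocytosis), Chsy (chondroitin sulfate synthase), lncRNA:CR45361, CG7029, CG10383 and Calr (calreticulin, a chaperone of the endoplasmic reticulum). Without the libraries labelled Jeb replicate 1 the ratio was 11.5 at Hsc70-4, 10.1 at Chsy, 6.85 at CG7029 and 9.99 at CG10383, and 14.7 or more at the other 3. At the Hsc70-4 site in the 5′ UTR, 35 bp downstream of the start, the libraries labelled Jeb replicate 1 were the highest of all. It had 44.3, 37.0 and 37.7 CPM in twi Alk.DN, 1397, 403 and 507 CPM in twi Jeb and 394, 346 and 402 CPM in twi Dam-PolII. With the bap driver it had 37.0, 41.6 and 57.6 CPM in bap Alk.DN libraries, 792, 199 and 279 CPM in bap Jeb and 190.2, 224 and 242 CPM in bap Dam-PolII. The Alk.DN libraries lay below all others with either driver, and the site adjoins 2 purine-ended fragments. The Calr site, in the 5′ UTR 77 bp downstream of its start, had 47.2, 43.0 and 45.5 CPM in twi Alk.DN, 69.6, 445 and 507 CPM in twi Jeb and 547, 535 and 561 CPM in twi Dam-PolII. With the bap driver it had 40.8, 26.4 and 44.4 CPM in bap Alk.DN libraries, 38.9, 240.4 and 259 CPM in bap Jeb and 227, 235 and 229 CPM in bap Dam-PolII. Its Alk.DN libraries and those labelled Jeb replicate 1 formed the low end, 26.4 to 69.6 CPM, and the other 10 libraries lay between 227 and 561 CPM. The CG10383 site had 49.4, 40.5 and 41.4 CPM in twi Alk.DN, 1222, 316 and 302 CPM in twi Jeb and 35.3, 52.5 and 45.6 CPM in twi Dam-PolII. With the bap driver it had 60.8, 56.6 and 69.6 CPM in bap Alk.DN libraries, 1411, 441 and 255 CPM in bap Jeb and 436, 460.4 and 415 CPM in bap Dam-PolII. Both Alk.DN groups and twi Dam-PolII were low, and both Jeb groups were high, as were the libraries labelled bap Dam-PolII, which also carried jeb exon signal.

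Strong sites sat close to transcription starts. Of the 2283, 773 (33.9%) lay within 250 bp of an annotated start, against 22.9% of the sites strong in 1 to 5 groups and 7.30% of all sites. Within 500 bp the shares were 49.8%, 36.4% and 14.1%, and within 1000 bp 64.4%, 51.7% and 25.4%. The median distance to the nearest start was 506 bp for strong sites, 915 bp for sites strong in 1 to 5 groups and 2763 bp for all sites. On both sides of the start the shares were highest in the nearest 250 bp, with 19.9% of strong sites just downstream, against 4.50% of all sites, and 13.9% just upstream, against 2.79%. A site in these bins was strong in all groups in 2.53% (downstream) and 2.84% (upstream) of cases, against 0.280% between 5000 and 2000 bp upstream. Of the strong sites within 1000 bp, 60.4% were downstream of the start, against 65.2% of all sites within that distance. These shares are descriptions, since neighbouring sites share fragments.

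**Figure D4:**
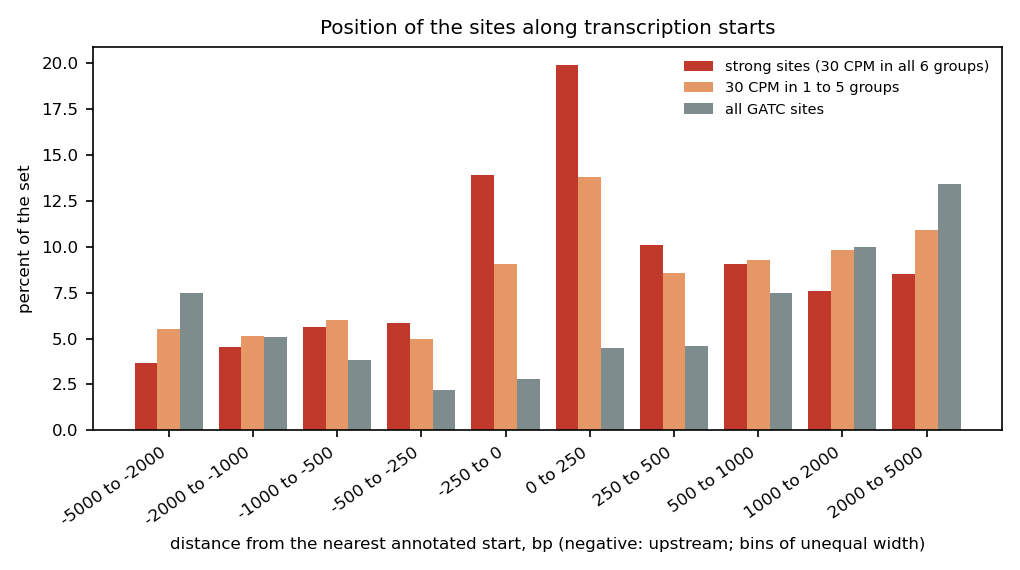
Percent of the strong sites, of the 8887 sites at 30 CPM in 1 to 5 groups and of all 400733 GATC sites (vertical axis) by signed distance to the nearest annotated transcription start in bp (bins of unequal width). Strong sites peak in the 250 bp on each side of the start, at 13.9% upstream and 19.9% downstream, against 2.79% and 4.50% of all sites.

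Within genes, strong sites favored 5′ UTRs and introns over coding sequence. The shares in 5′ UTRs were 19.2% of strong sites, 12.3% of sites strong in 1 to 5 groups and 2.81% of all sites. Introns held 43.6%, 43.0% and 30.5%, exons of noncoding genes 7.53%, 4.44% and 1.63%, and 3′ UTRs 2.19%, 4.28% and 4.22%. Coding exons held 10.8% of strong sites, against 16.3% and 31.3%, and intergenic sequence 16.7%, against 19.6% and 29.5%. In all, 1902 strong sites (83.3%) overlapped at least 1 gene. The lowest group mean of the strong sites, which the rule keeps at 30 CPM or more, varied little with position. The median of the lowest group mean was 57.6 CPM for the 773 sites within 250 bp of a start, 49.8 CPM for the 848 further sites in introns, 53.8 CPM for 405 in exons and 48.7 CPM for 257 in intergenic sequence. Medians within single groups differed more, and in each group they were highest near starts. They ran from 70.6 (intergenic) to 108 CPM (near starts) in bap Jeb and from 83.5 (exons) to 96.1 CPM (near starts) in bap Alk.DN. The median ratio between groups was 3.02 near starts, 2.59 in introns beyond, 2.82 in exons beyond and 2.67 in intergenic sequence beyond.

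The fragments around strong sites were longer than usual. The longer of the 2 adjoining fragments had a median of 615 bp, against 584 bp at sites strong in 1 to 5 groups and 369 bp over all sites. Only 1.36% of strong sites lay between fragments that were both under 200 bp, against 4.57% and 27.5%. Both ends of a fragment are read from the same molecules, and 1811 strong sites (79.3%) had a neighbouring GATC site that was also strong. The 1020 fragments with a strong site at both ends had a median length of 491 bp (quartiles 367 and 669 bp, range 9 to 1902 bp). Their ends differed by a median of 0.288 in log2 group mean and lay within 1.5-fold in 71.0% of cases. Counted as runs of neighbouring strong sites, there were 1263 separate loci, of which 472 held 1 site, 656 held 2, 87 held 3 and 48 held 4 or more.

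The longest runs, of 19, 13 and 11 sites, were copies of 5S ribosomal RNA with repeated ends. The longest runs of unique sites were 7 sites over 1615 bp in LanA (the laminin alpha chain, 3L:6216012-6217626) and 6 sites over 1944 bp at chic (profilin, 2L:5971626-5973569). The chic run lay in the 3′ part of the gene and downstream of it. Runs of 5 sites each lay in aop, in ptc (the Hedgehog receptor) and in dos (an adaptor in receptor tyrosine kinase signaling). Neighbours in such a run were not equally even. In LanA the ratio between groups was 2.55 at one site and 7.08 at another, at chic 1.98 to 7.83, in dos 1.77 to 6.79 and in ptc 2.04 to 2.59. The ranges were 2.38 to 5.37 in LanA, 1.80 to 5.22 at chic, 1.77 to 2.59 in dos and 1.83 to 3.41 in ptc without the libraries labelled Jeb replicate 1. Of all strong sites 175 (7.67%) had a 50 bp end that occurs more than once among GATC sites, against 18.5% of all sites, and 36 (1.58%) lay in an annotated transposable element, against 6.41%. The median GC content around the sites was 43.3%, against 44.0% over all sites.

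By chromosome, strong sites made up 0.584% to 0.696% of the sites on each major autosome arm and chromosome 4, 0.411% of those on X (277 of 67358) and 0 of 9945 on Y. The mitochondrial genome had 8 strong sites of 27, with a median ratio between groups of 10.4 (8.64 without the libraries labelled Jeb replicate 1). On each major arm and on chromosome 4 and X the median ratio was 2.60 to 2.88.

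Strong sites fell in 1135 of 18358 annotated genes (6.18%). Of 13986 protein-coding genes 963 (6.89%) held at least 1, of 3304 noncoding RNA genes 83, of 115 genes annotated as rRNA 81, of 312 as tRNA 3 and of 269 snoRNA genes none. Genes without a GATC site could not hold a strong one. Of the 16340 genes with a GATC site, 6.95% held a strong site. A gene held 1 strong site in 597 cases, 2 in 345 and 3 or more in 193, of which 29 held 6 or more. Genes with a strong site were long, with a median of 6325 bp and 23.0 GATC sites, against a median of 1638 bp over all genes and 8 GATC sites over genes with any. The share with a strong site was 4.15% of genes with 1 to 5 GATC sites, 4.08% with 6 to 20, 12.5% with 21 to 50 and 25.9% with over 50. Counts of listed genes below have to be read with that in mind.

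The genes with most strong sites were fz2, a Wnt receptor, with 16 of its 187 GATC sites, aop and vn (Vein, a ligand of the EGF receptor) with 10 each, beat-Ib (a cell-surface immunoglobulin protein) and cv-c with 9 each, and kibra (an upstream regulator of the Hippo pathway), lncRNA:CR43334 and sty with 8 each. In fz2 all lowest group means were modest, 31 to 80.9 CPM, and ratios ran from 2.35 to 10.2 (2.63 to 10.2 without the libraries labelled Jeb replicate 1). Here and below, the highest site of a gene is the one with the highest lowest-group mean. That of fz2, in an intron, had 81.7, 88.7 and 72.4 CPM in twi Alk.DN, 22.3, 229.5 and 359.9 CPM in twi Jeb and 183, 153 and 222 CPM in twi Dam-PolII. Under bap-GAL4 it had 177, 198 and 162 CPM in bap Alk.DN libraries, 31.1, 407 and 364 CPM in bap Jeb and 315, 356 and 389 CPM in bap Dam-PolII. Both Alk.DN groups lay below the Dam-PolII group of their driver without overlap, and the libraries labelled Jeb replicate 1 were the lowest.

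The kibra site in the 5′ UTR, 275 bp downstream of the start, kept its replicates together. It had 199.9, 213 and 201 CPM in twi Alk.DN, 506, 474 and 473 CPM in twi Jeb and 768, 718 and 708 CPM in twi Dam-PolII. Under bap-GAL4 it had 199.7, 227 and 131 CPM in bap Alk.DN libraries, 588, 421 and 509.7 CPM in bap Jeb and 553, 590.4 and 566 CPM in bap Dam-PolII. With either driver Alk.DN lay lowest, and the libraries labelled Jeb replicate 1 were not low. The beat-Ib site (2L:15911099-15911102) ran the other way, with 256, 276 and 306 CPM in twi Alk.DN, against 159, 165 and 186 CPM in twi Dam-PolII libraries, and 324, 368 and 451 CPM in bap Alk.DN libraries, against 223, 306 and 275 CPM in bap Dam-PolII. There the Alk.DN libraries lay above the Dam-PolII libraries of their driver. The cv-c site, in an intron, had 295, 317 and 336 CPM in twi Alk.DN, against 311, 331 and 388 CPM in twi Dam-PolII libraries, and 275, 251 and 260.4 CPM in bap Alk.DN libraries, against 179, 224 and 250.2 CPM in bap Dam-PolII. The groups overlapped with twi and did not with bap. In lncRNA:CR43334 the highest site lay 662 bp upstream of the start of mir-ban (the bantam microRNA) and had 136, 148 and 143 CPM in twi Alk.DN, against 546, 453 and 564 CPM in twi Dam-PolII.

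Of the gene lists examined, the ERK pathway feedback genes and effectors held strong sites most often among lists of 10 genes or more. They fell in 9 of 12, with 40 strong sites in all: aop, pnt (Pointed, the ETS activator of the pathway), sty, cic (Capicua, a repressor that ERK inactivates), Mkp3 (an ERK phosphatase), edl (an antagonist of ETS factors), aos (Argos, a secreted inhibitor of the EGF receptor) and the EGF receptor ligands spi and vn. These genes have a median of 59.5 GATC sites each. Lowest group means ran from 31.3 to 312 CPM and ratios from 1.12 to 8.87, with a median ratio of 2.33. The ratios ran from 1.46 to 4.25, with a median of 2.20, without the libraries labelled Jeb replicate 1. The cic site at 3R:20292236-20292239 had 138, 146 and 133 CPM in twi Alk.DN, 72.0, 307 and 395 CPM in twi Jeb and 279, 242 and 249 CPM in twi Dam-PolII. Under bap-GAL4 it had 229, 235 and 294 CPM in bap Alk.DN libraries, 104, 575 and 607 CPM in bap Jeb and 351, 448 and 466 CPM in bap Dam-PolII. The pnt site at 3R:23294120-23294123, in a coding exon, was closer to even, with 90.4, 96.1 and 85.8 CPM in twi Alk.DN, against 124, 97.6 and 92.9 CPM in twi Dam-PolII libraries, and 151, 177 and 161 CPM in bap Alk.DN libraries, against 165, 183 and 168 CPM in bap Dam-PolII. The groups overlapped there with both drivers. Within sty itself the 8 strong sites ran from the most even of all to a ratio of 8.87, which was 2.80 without the libraries labelled Jeb replicate 1, and its highest site had 93.7, 86.8 and 87.5 CPM in twi Alk.DN, against 249, 214 and 247 CPM in twi Dam-PolII.

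Muscle genes held strong sites as well. They fell in 9 of 16 visceral mesoderm and founder cell genes (Alk, CG11658, Fas3, Kah, dpp, fax, kirre, pnt and sns). They also fell in 9 of 20 genes of the mesoderm transcription factor list (Mef2, Six4, eya, how, hth, lmd, nau, tup and zfh1). That list counts how, with 6 strong sites, although its product binds RNA. The first list includes genes that the study named from these libraries. The highest site of how, an RNA-binding protein of muscle, lay 530 bp downstream of its start and had 302, 303 and 288 CPM in twi Alk.DN, 23.9, 728 and 710.1 CPM in twi Jeb and 730.5, 706 and 713 CPM in twi Dam-PolII. Under bap-GAL4 it had 248, 259.9 and 236 CPM in bap Alk.DN libraries, 29.8, 727 and 672 CPM in bap Jeb and 563, 653 and 628 CPM in bap Dam-PolII. Outside the libraries labelled Jeb replicate 1, Jeb and Dam-PolII libraries lay between 563 and 730.5 CPM and Alk.DN libraries between 236 and 303 CPM. In Mef2, a master regulator of muscle differentiation, the highest site had 300.2, 246 and 233 CPM in twi Alk.DN, against 490.2, 462 and 509 CPM in twi Dam-PolII libraries, and 333, 335 and 329 CPM in bap Alk.DN libraries, against 390.3, 460.2 and 465 CPM in bap Dam-PolII. In dpp, the BMP ligand, levels followed the driver, with 89.8, 94.0 and 91.0 CPM in twi Alk.DN and 116, 114 and 108 CPM in twi Dam-PolII, against 264, 288 and 235 CPM in bap Alk.DN and 259, 227 and 257 CPM in bap Dam-PolII. In Alk itself the highest site, in the receptor gene whose extracellular part the Alk.DN transgene encodes, had 79.4, 68.4 and 70.9 CPM in twi Alk.DN, against 107, 119.9 and 122 CPM in twi Dam-PolII libraries, and 175, 141 and 178 CPM in bap Alk.DN libraries, against 221, 231 and 234 CPM in bap Dam-PolII. With both drivers the Alk.DN libraries lay lower, without overlap. The kirre site (an adhesion molecule of founder cells) had 136, 134 and 142 CPM in twi Alk.DN, against 82.7, 86.1 and 107 CPM in twi Dam-PolII libraries, and 241, 222 and 256 CPM in bap Alk.DN libraries, against 191, 252 and 235 CPM in bap Dam-PolII. There Alk.DN lay higher with twi, and the groups overlapped with bap.

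As a check of tissue, strong sites were found in 4 of 10 mesoderm markers (Mef2, how, htl and Fas3), and not in twi, tin, bap, bin, Hand or org-1. They were found in 2 of 5 neuron markers, elav with 2 sites (one of 49.5 and one of 30.8 CPM in the lowest group) and Rdl with 1 site whose end has 23 copies, and in 1 epidermis marker, shot. The epidermis list had 2 genes. None of 4 neuroblast, 2 glia, 4 hemocyte, 3 endoderm, 2 trachea and 2 germ cell markers held one. The planned symbols svb, hnt and nos were not found in the annotation. Since 6.18% of all annotated genes held a strong site, nothing is read from its absence in lists this short. At the higher elav site the 2 Alk.DN groups had 38.6 to 68.3 CPM and the 2 Dam-PolII groups 63.7 to 94.6 CPM. The part of other cell types in these levels was not tested.

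**Figure D5:**
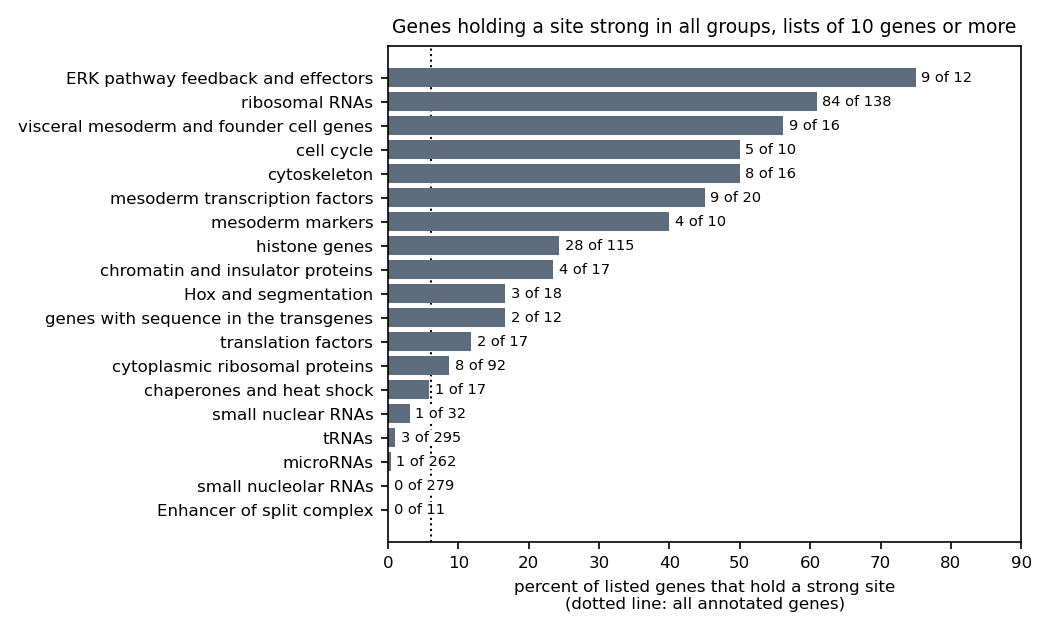
Percent of the genes of each list (lists of 10 genes or more) that hold at least 1 strong site, with the number of genes beside each bar. The dotted line is the 6.18% of all annotated genes. ERK pathway genes (9 of 12) lie highest, and small nucleolar RNAs and the Enhancer of split complex have none. Genes without a GATC site, which cannot hold a strong site, are counted in the lists. A GATC site is present in only 83 of 279 small nucleolar RNA, 62 of 262 microRNA, 115 of 295 tRNA and 50 of 115 histone genes.

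The other lists varied in how many genes held a strong site. Strong sites fell in 8 of 92 cytoplasmic ribosomal protein genes, which have a median of 4.00 GATC sites each, in 2 of 17 translation factors (eEF1alpha1 and pAbp) and in 1 of 17 chaperone genes (Hsc70-4). They fell in 8 of 16 cytoskeletal genes (Act87E, Tm1, Tm2, alphaTub84B, betaTub60D, chic, tsr and zip), 5 of 10 cell cycle genes, 4 of 17 chromatin and insulator genes (Trl, lola, ph-p and pita) and 3 of 18 Hox and segmentation genes (Antp, hh and ptc). In RpL6, a protein of the large ribosomal subunit, the highest site had 104, 102 and 97.0 CPM in twi Alk.DN, against 145, 144 and 147 CPM in twi Dam-PolII libraries, and 117, 108 and 155 CPM in bap Alk.DN libraries, against 172, 187 and 185 CPM in bap Dam-PolII. Its groups were separate with both drivers. None of 11 Enhancer of split genes and 1 of 262 microRNA genes, mir-8, held one. Only 62 of those microRNA genes contain a GATC site, and the others could not hold a strong one. The highest site of Act87E, an actin gene, 70 bp downstream of the start of lncRNA:CR45591, had 286, 229 and 231 CPM in twi Alk.DN, 18.5, 788 and 931 CPM in twi Jeb and 667, 731 and 748 CPM in twi Dam-PolII. The highest site of Trl (the GAGA factor), in an intron 20 bp upstream of the start of CG42507, had 159, 158 and 177 CPM in twi Alk.DN, 192, 899 and 1176 CPM in twi Jeb and 861, 771 and 789 CPM in twi Dam-PolII. At both sites the twi Alk.DN libraries lay below the twi Dam-PolII libraries without overlap. In CycE (cyclin E, which drives entry into S phase) the highest site had 165, 171 and 184 CPM in twi Alk.DN, against 248, 198 and 214 CPM in twi Dam-PolII libraries, and 216, 171 and 220.1 CPM in bap Alk.DN libraries, against 139.6, 163 and 161 CPM in bap Dam-PolII. There Alk.DN lay lower with twi and higher with bap. At ph-p, a Polycomb group gene, the ratio was 1.42 (1.73 without the libraries labelled Jeb replicate 1), with 270.0, 236 and 214 CPM in twi Alk.DN, 14.0, 308 and 429 CPM in twi Jeb and 254, 240.2 and 249.6 CPM in twi Dam-PolII.

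Repeated genes formed a group of their own. Strong sites fell in 28 of 115 histone genes, with 29 sites that all have repeated ends, and in 84 of 138 ribosomal RNA genes and pseudogenes, all with repeated ends. A GATC site is present in 50 of those histone genes and in 128 of those ribosomal RNA genes and pseudogenes. The site in His2B:CG33868, whose end has 23 copies, had 90.5, 121 and 113 CPM in twi Alk.DN, 170.3, 805 and 619 CPM in twi Jeb and 330.4, 333 and 308 CPM in twi Dam-PolII. Under bap-GAL4 it had 104, 90.3 and 95.8 CPM in bap Alk.DN libraries, 58.0, 400.2 and 253 CPM in bap Jeb and 161, 163 and 150.4 CPM in bap Dam-PolII. The site of the spliceosomal snRNA:U1:21D, with 4 copies, had 51.3, 44.6 and 42.4 CPM in twi Alk.DN, against 929, 830.5 and 737 CPM in twi Dam-PolII. It had 46.5, 37.4 and 66.0 CPM in bap Alk.DN libraries, against 259.5, 261 and 261 CPM in bap Dam-PolII. The 5S site in 5SrRNA:CR33426 had 911, 1104 and 1211 CPM in twi Alk.DN, against 413, 389 and 400.2 CPM in twi Dam-PolII libraries, and 933, 1062 and 951 CPM in bap Alk.DN libraries, against 362, 358 and 324 CPM in bap Dam-PolII. The Alk.DN libraries lay below all Dam-PolII libraries at 29 of 29 histone sites with twi and at 17 of 29 with bap. With both drivers the U1 site named was lower and the 5S site named higher in Alk.DN than in Dam-PolII, without overlap of these groups.

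The groups were also compared by a per-site fit over all sites (edgeR's quasi-likelihood test, two-sided, with TMM scaling and a Benjamini-Hochberg adjusted p under 0.01). All 2283 strong sites passed its filter on low counts in every comparison. The Alk.DN libraries of both drivers had the low Polr2A exon signal given above, and its part in the Alk.DN comparisons was not tested. The strong sites were chosen from the counts of these same libraries and have more counts than most sites, so the background is printed beside the counts and nothing is read from the difference. For twi Alk.DN against twi Dam-PolII, 1654 strong sites (72.4%) were called, 96 higher and 1558 lower, against a background of 11.1% of 116694 sites tested. Their median log2 fold change was -1.01, and that of all sites tested 0.26. For bap Alk.DN against the libraries labelled bap Dam-PolII, which carried jeb exon signal, 1190 (52.1%) were called, 137 higher and 1053 lower, against a background of 20.4% of 71052 sites. The medians were -0.66 at strong sites and 0.03 over all sites. One fit to all 18 libraries, which share one estimate of the spread, called 22 strong sites for twi (0.964%, against 0.242% of all sites; median -1) and 48 for bap (2.10%, against 1.12%; median -0.93), so these counts depend on which libraries enter the fit. With libraries scaled by their total counts, the medians over all sites moved to 0.78 (twi) and 0.42 (bap). Strong sites called were then 1141 (50.0%, against 12.3% of all sites) and 919 (40.3%, against 21.5%). Of these calls 15.1% and 28% were higher, against 5.80% and 11.5% with TMM. The size of these changes therefore depends on the scaling, and at the even sty site, where CPM hardly differed, the fitted values were -0.35 ± 0.16 (twi) and -0.35 ± 0.22 (bap).

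Calls by position and list followed the same direction in most classes. In twi, 543 of the 773 strong sites within 250 bp of a start were called lower and 85 higher, and in introns beyond 553 of 848 were lower and 4 higher. In bap, the counts were 399 lower and 83 higher near starts, and 382 lower and 18 higher in introns beyond. In either direction, 81.2% (twi) and 62.4% (bap) of the strong sites near starts were called, against 24.2% and 29.9% of all tested sites there, and 65.7% and 47.2% of those in introns beyond, against 9.89% and 18.5%. The list counts below have to be read beside the shares called in either direction, 72.4% (twi) and 52.1% (bap) of all strong sites. Over all tested sites these shares were 11.1% and 20.4%. The median log2 fold changes of all strong sites were -1.01 (twi) and -0.66 (bap). Of the 40 ERK list sites, 35 were called lower in twi (median -1.26) and 24 in bap (median -0.93), with none higher. Of 28 cytoskeletal sites, 27 were lower in twi (median -2.20) and 20 in bap (median -1.35). Of the 26 visceral mesoderm and founder cell sites, 20 were lower in twi and 12 in bap. Of the 26 sites of the mesoderm transcription factor list, which counts how, 21 were lower in twi, and in bap 12 were lower and 1 higher. All 29 histone sites were lower in twi (median -2.18) and 12 in bap (median -0.62). Ribosomal RNA sites went the other way, with 82 of 84 called higher in twi (median 0.98) and 69 in bap (median 1.11). Of these 84 sites 80 lay within 250 bp of a start, and all 84 had repeated ends. Most of the higher calls near starts, with either driver, were therefore calls of these repeated copies.

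For Jeb against Dam-PolII no strong site was called with either driver, against a background of 0% of 76594 sites (twi) and 0% of 61039 sites (bap). The bap comparison rests on the libraries labelled bap Dam-PolII. They had 367 to 469.8 CPM over the first exon of jeb, against 258 and 249 CPM in bap Jeb replicates 2 and 3. The part of this signal in the bap comparison was not tested. At an unadjusted p under 0.05 there were 201 strong sites in twi and 184 in bap. The share of all tested sites at that cut was not counted, so nothing is read from these numbers. Without the library labelled Jeb replicate 1, 48 strong sites (2.10%) were called in twi, all higher, against a background of 0.177% of the sites tested, and 20 (0.876%) in bap, 13 higher and 7 lower, against 0.834%. DESeq2's Wald test over all libraries called 1 in twi (0.0438%, against 0.234% of all sites) and 5 in bap (0.219%, against 0.988%).

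Between drivers, twi Dam-PolII against bap Dam-PolII gave 930 called strong sites (40.7%), 366 higher and 564 lower in twi, against a background of 20.5% of 76098 sites. The median absolute log2 fold change was 0.47 at strong sites and 0.98 over all sites, and 81.3% of strong sites lay within 2-fold, against 50.7% of all sites. In Alk.DN, 434 strong sites (19.0%) were called between twi and bap, 28 higher and 406 lower in twi, against a background of 2.93% of 106339 sites, and 85.7% of strong sites lay within 2-fold, against 72.0% of all sites. Without twi Alk.DN replicate 2 this count was 112, and without twi Alk.DN replicates 1 or 3 or bap Alk.DN replicate 1 it was 206, 136 or 216. Those fits called 0.609%, 0.888%, 0.676% and 1.29% of all sites, in that order. The Alk.DN effect differed between drivers at 207 strong sites (9.07%), 58 with a higher and 149 with a lower value in twi, against a background of 2.01% of 131056 sites. Without twi Alk.DN replicate 2 or 3 these were 116 or 136, and with DESeq2's size factors 273, of which 11.7% had a higher value in twi, against 28% with TMM. Those fits called 1.03%, 1.04% and 2.03% of all sites, in that order. The first and last of these comparisons rest on the libraries labelled bap Dam-PolII. Those libraries had 2043 to 2088 CPM over Polr2A exons, against 260.1 to 269 CPM in twi Dam-PolII, and the part of this difference was not tested. Over the 6 comparisons between groups, 318 strong sites (13.9%) were called in none, 462 in 1, 926 in 2, 414 in 3 and 163 in 4. The comparisons of Jeb with Dam-PolII called no site at all, so no site could be called in more than 4. The same count over all sites was not made, so nothing is read from this one.

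In the promoters of genes (the 250 bp before the outermost start, both strands), 4 motifs were counted: GAGAG (the core of GAGA factor sites), TATAAA (the TATA box), TATCGATA (the DNA replication-related element) and TCAGT (part of the initiator). GAGAG occurred in 36.6% of the 527 protein-coding genes with a strong site within 250 bp of a start, against 25.7% of all 13977. TATAAA occurred in 40%, against 43.1%, TATCGATA in 7.40%, against 7.98%, and TCAGT in 34.7%, against 38.8%. None of these motifs contains another, and the shares are descriptions of letters in a window. The window ends before the outermost start, so an initiator spanning that start was not counted, and TCAGT says nothing about initiators here. The strong site may also lie near another start of its gene.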

How the data were processed

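Per the study's methods and the labels, embryos of each genotype were sampled in 3 biological replicates, DpnI-cut DNA was amplified, and the authors aligned reads with Bowtie2 (very sensitive local mode) to FlyBase release 6.21 and counted read edges at GATC sites. The submitters' processing notes also name CASAVA 1.4 and limma. The deposited table holds raw counts per GATC site and library, not normalized, and all its positions are GATC in the Release 6 sequence. The deposited peak tables hold the authors' own combined p-values and window calls and were not used. One bap Alk.DN library (replicate 3) has a title without its group and was placed by its other labels.

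CPM was the count divided by the library total times 1000000. Genes, exons and starts came from the Ensembl 115 annotation. Counts were tested in edgeR 4.0.16 (R 4.3.3; filterByExpr with a minimum count of 10, TMM scaling, quasi-likelihood F-test, two-sided) within the groups compared, with Benjamini-Hochberg adjustment over all sites tested and a threshold of 0.01. The scripts were tested on simulated data. Alternatives used limma 3.58.1, DESeq2 1.42.0, other scalings, filters and thresholds, each library left out, and a replicate block. Ratios and correlations without both libraries labelled Jeb replicate 1, over the same 2283 sites, were added after seeing the data. Figures were drawn in matplotlib 3.10.9, and tables built with pandas 2.3.3 and numpy 2.4.6 under Python 3.11.15.

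The members and lists were chosen with earlier results of these data known. Named were the 12 sites with the highest lowest-group mean, the 8 most and 8 least even, the 8 genes with most strong sites, the 3 sites on each side of the threshold, and up to 4 genes per list. For the least even sites fold changes carry no p, since the same contrast chose them. Wilson intervals are at 95%.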

Additional observations from a re-analysis of the deposited data

Results flagged for a closer look

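At 207 strong sites the effect of Alk.DN differed between the twi and bap drivers by a test of the difference itself (edgeR interaction term, adjusted p under 0.01 over all sites tested), with a higher value in twi at 58 and a lower one at 149. Strong sites were chosen by the counts of these libraries, and 2.01% of all 131056 sites tested were called. The difference rests on the libraries labelled bap Dam-PolII, which carried jeb exon signal, and its cause was not tested.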

How the results depend on the processing

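Requiring 30 CPM in each of the 18 libraries left 897 sites, and group thresholds of 20 or 50 CPM gave 3644 or 1216. One fit to all 18 libraries called 22 strong sites for twi Alk.DN, 48 for bap Alk.DN, 2 for bap Jeb, 13 between drivers in Dam-PolII, 0 in Alk.DN and 0 for the interaction. Of all sites it called 0.242%, 1.12%, 0.0902%, 1.64%, 0.0303% and 0.0152%, in that order. DESeq2's Wald test called 1 for twi Jeb, 5 for bap Jeb, 838 between drivers in Alk.DN and 519 for the interaction. Its shares over all sites were 0.234%, 0.988%, 7.99% and 5.14%, in that order. Testing every site with at least 1 count called 1 for twi Jeb and 323 for the interaction, against 0.0287% and 1.24% of all sites. The limma-voom fit called 757 between drivers in Alk.DN, against 5.29% of all sites. The cause of these differences was not tested.

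With single libraries left out, the number of strong sites was 2118 (without twi Jeb replicate 2) to 2322 (without bap Jeb replicate 1), the median ratio 2.72 to 3.02 and the share within 250 bp of a start 33.4% to 34.3%. Strong sites called were 1196 to 1651 for twi Alk.DN, 982 to 1205 for bap Alk.DN, 0 to 48 for twi Jeb, 0 to 20 for bap Jeb, 707 to 940 between drivers in Dam-PolII, 112 to 384 in Alk.DN and 116 to 207 for the interaction. Without both libraries labelled Jeb replicate 1 there were 2388 strong sites, 2198 of them shared with the 2283, and without the group labelled bap Dam-PolII 2371. With TMM-scaled CPM there were 1911, of which 1847 were shared, and with unique ends, a choice made after seeing the data, 2108.

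Same-numbered replicates did not deviate together in the pairs checked, Alk.DN or Jeb with Dam-PolII of one driver and twi with bap in Dam-PolII and Alk.DN (correlations of -0.039 to 0.022), so the numbers were not taken to pair samples. Pairs of twi Jeb with bap Jeb were not checked in this way, and the libraries labelled Jeb replicate 1 correlated at 0.952 across drivers. With the replicate block, 1582 strong sites (69.3%) were called for twi Alk.DN, against 8.05% of all sites, and 1137 (49.8%) for bap Alk.DN, against 16.1%. For Jeb 0 were called with either driver, against 0% of all sites. Between drivers 904 (39.6%) were called in Dam-PolII, against 17.0%, and 370 (16.2%) in Alk.DN, against 1.98%. For the interaction 209 (9.15%) were called, against 1.84%. Whether the CG31743 and CG34313 site passed the threshold depended on the scaling, on the libraries in the fit and on single libraries left out. With single libraries left out its log2 fold change of Alk.DN over Dam-PolII was -1.29 to -0.94 in twi and -1.10 to -0.84 in bap. No p is given for it, since its values chose it. The depth of bap Jeb replicate 3, with a floor of 1.85 CPM, and the low counts of the libraries labelled Jeb replicate 1 at sites without a purine-ended fragment limit the Jeb comparisons. In bap the jeb exon signal of the libraries labelled bap Dam-PolII limits them as well.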
